A study of Rattus norvegicus with 9 samples.

Results

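The ileum, the last stretch of the small intestine, both takes up cholesterol from its lumen and makes its own, and the 30 genes described here cover that traffic in rats after gastric bypass surgery. They were taken by gene symbol from a list: 18 enzymes of the route from acetyl-CoA to cholesterol, 6 genes of its control by the sterol regulatory element-binding proteins (SREBPs) and of sterol carriage, and 6 genes of sterol transport and esterification. All 30 were found among the 17120 genes used, and all 30 had a mean of at least 1 FPKM (fragments scaled to transcript length and to the mapped fragments of the library) over the libraries of each deposited table, the level required for a test. Most of the enzymes lay lower in FDG-decreased than in FDG-increased bypass ileum, and all 6 transport genes had a higher mean there. Of the single genes Hmgcs1 alone passed the test, and that only with libraries paired by replicate number.

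Every group was of the same strain, Otsuka Long-Evans Tokushima fatty, and total RNA of the ileum was sequenced. Rats of this strain grow obese and diabetic and have no working cholecystokinin A receptor. The labels name 3 groups of 3 replicates: ileum after Roux-en-Y gastric bypass (RYGB) with FDG decreased, ileum after RYGB with FDG increased, and ileum of sham-operated rats, with tissue taken 1 month after surgery. RYGB connects a small gastric pouch to a limb of jejunum, so that food misses most of the stomach and the duodenum. FDG is read here as fluorodeoxyglucose, the glucose analogue of positron emission tomography, although the labels leave it abbreviated, and the labels state neither age nor sex. Whether the replicates are separate animals is not stated, so a p-value here covers no more than the spread of these libraries, which may be technical.

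Cholesterol is built from acetyl-CoA through mevalonate, farnesyl diphosphate and squalene, and most genes of the route are switched on together by SREBP-2. When sterols are plentiful, Insig proteins hold the SREBP escort Scap in the endoplasmic reticulum and the route is turned down. When sterols run low, Scap carries SREBP to the Golgi, where it is cut and released to the nucleus. In the small intestine the surface protein Npc1l1 brings in luminal cholesterol, Soat2 esterifies it for chylomicrons, Abca1 exports it to high-density lipoprotein, and the paired exporters Abcg5 and Abcg8 return sterols to the lumen.

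Promoters are shown because the enzymes are known to share their control: SREBPs bind sterol regulatory elements (SREs) near CCAAT boxes, which are bound by NF-Y. RefSeq promoter windows of build GRCr8, running from 250 bases before to 50 bases after a gene's start, were matched by symbol for 24 of the 30 genes, in 25 windows because Srebf1 has a window at each of its 2 starts. On either strand, the letters CCAAT were present in 20 of the 25 windows, against 37.49% of all 33469 windows of the same length. The SRE core written as TCACNCCAC was in 0 of the 25 windows and in 1.117% of all windows. No match means only that these letters are absent from these windows. Both motifs together were in 0 of the 25 windows and in 0.499% of all. The 5 windows below are those of Hmgcs1, Msmo1 and Insig1, which were lower in FDG-decreased ileum in every pair, and of Npc1l1 and Abcg5, which were higher in every pair, each read 5′ to 3′ on the strand of its gene, with capitals marking each CCAAT or its reverse complement ATTGG.
Hmgcs1, chr2:53382054-53382353, plus strand: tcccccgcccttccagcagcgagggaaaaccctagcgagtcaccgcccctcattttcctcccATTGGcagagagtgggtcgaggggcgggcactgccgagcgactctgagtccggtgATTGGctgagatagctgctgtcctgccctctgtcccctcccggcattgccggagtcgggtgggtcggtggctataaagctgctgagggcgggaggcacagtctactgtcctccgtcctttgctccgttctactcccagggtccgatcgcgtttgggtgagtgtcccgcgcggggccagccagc
Msmo1, chr16:29746863-29747162, plus strand: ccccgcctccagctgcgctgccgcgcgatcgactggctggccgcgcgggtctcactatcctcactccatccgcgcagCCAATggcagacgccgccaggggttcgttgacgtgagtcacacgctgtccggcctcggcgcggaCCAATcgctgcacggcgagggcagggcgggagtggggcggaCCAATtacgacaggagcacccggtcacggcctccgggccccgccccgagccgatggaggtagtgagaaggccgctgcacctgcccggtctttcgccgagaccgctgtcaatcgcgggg
Insig1, chr4:8057720-8058019, minus strand: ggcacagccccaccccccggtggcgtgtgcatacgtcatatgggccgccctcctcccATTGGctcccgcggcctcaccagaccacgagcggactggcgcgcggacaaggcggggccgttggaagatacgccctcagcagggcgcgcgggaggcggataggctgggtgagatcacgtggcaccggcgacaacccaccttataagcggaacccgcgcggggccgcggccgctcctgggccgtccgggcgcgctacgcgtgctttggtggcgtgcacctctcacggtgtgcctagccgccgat
Npc1l1, chr14:85305001-85305300, minus strand: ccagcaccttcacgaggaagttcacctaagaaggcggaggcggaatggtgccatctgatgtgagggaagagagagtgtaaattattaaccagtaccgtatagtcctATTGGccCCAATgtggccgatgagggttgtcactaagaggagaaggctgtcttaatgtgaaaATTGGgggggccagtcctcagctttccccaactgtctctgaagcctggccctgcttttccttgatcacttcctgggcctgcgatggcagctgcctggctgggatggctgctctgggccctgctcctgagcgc
Abcg5, chr6:15717686-15717985, plus strand: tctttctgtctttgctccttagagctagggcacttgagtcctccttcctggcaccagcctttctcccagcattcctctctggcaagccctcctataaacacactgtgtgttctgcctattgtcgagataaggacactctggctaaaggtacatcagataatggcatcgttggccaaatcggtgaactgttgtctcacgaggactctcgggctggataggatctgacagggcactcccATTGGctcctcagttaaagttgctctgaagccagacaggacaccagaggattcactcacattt
Hmgcs1 has 2 CCAAT boxes, whose first bases lie at -188 and -133 from the start, both as ATTGG. Msmo1 has 3, at -173, -109 and -68, all as CCAAT. Npc1l1 has 3 and Insig1 has 1. Abcg5 and Abcg8 lie head to head on opposite strands, with starts 206 bases apart, so that their windows share 295 bases and the single box of the Abcg5 window is also the single box of the Abcg8 window.

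FDG-decreased and FDG-increased RYGB ileum were deposited in 1 table of 6 libraries, and FDG-increased RYGB and sham ileum in another, each scaled on its own. FPKM summed to between 465697 and 864511 per library, and 10332 to 10892 genes reached 1 FPKM. Columns 2 and 3 of the FDG-increased group in the sham table are the FDG-increased libraries 1 and 2 of the RYGB table times 1.023 and 1.0204, with 99.985% and 99.941% of genes within 1% of that factor. Of the 12 columns 10 are distinct libraries, 4 from the FDG-increased group, and the 2 comparisons share a pair of them. The labels name only 3 FDG-increased samples, so they do not cover all 4 libraries. Which library they leave out is not known. The library labelled sham replicate 1 stood apart and went against its tissue label: Fabp6, the bile acid binding protein of ileal enterocytes, was at 22.6 FPKM there and at 8375 and 11347 in the other sham libraries, while lactase (Lct), an enzyme of the upper intestine, was at 253 against 8.60 and 0.317. In the RYGB table Fabp6 ranged from 5399 to 22498 FPKM. In the comparison with sham, list medians, the counts of members called or wholly apart, and the differences of the genes described most fully are therefore also given without that library. In the RYGB table libraries of the same number deviated together from their group means, so the fit with replicate number as a block is given beside the unblocked one.

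Levels of the 30 genes spanned more than an order of magnitude in RYGB ileum. Averaged over the 6 RYGB libraries, Hmgcs1 (125 FPKM), the sterol carrier Stard4 (121), Cyp51 (121) and Sc5d (112) were the most abundant per length. Abca1 (6.87 FPKM), Scarb1 (7.47) and Lss (7.54) were the least abundant. Srebf2, which encodes SREBP-2, averaged 59.7 FPKM and Srebf1, which encodes the forms that mainly drive fatty acid synthesis, 10.5. Neighbours in this order overlapped in their ranges over the 6 libraries, and Stard4 alone ranged from 75.2 to 201 FPKM within the FDG-decreased group.

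The first comparison asked how the sterol genes of RYGB ileum differ between FDG decreased and FDG increased. Of the 18 synthesis enzymes, 15 had a lower mean in FDG-decreased ileum and 10 were lower in each of the 3 replicate pairs, where 12.7% of all genes tested were lower in every pair. All 6 transport genes had a higher mean and 3 were higher in every pair, against 17.2% of all genes. Over all 10739 genes tested, 4811 had a lower and 5928 a higher mean in FDG-decreased ileum. The median difference in log2(FPKM + 1), FDG decreased minus FDG increased, was -0.23 over the enzymes, 0.51 over the transport genes and 0.02 over all genes. With limma and Benjamini-Hochberg adjustment over 10739 genes, 0 of the 30 members and 0% of all genes passed an adjusted p of 0.05, and 0 members and 110 genes had an unadjusted p under 0.05. With the replicate block 1 member, Hmgcs1, passed, as did 1.14% of all genes, and 3 members higher and 6 lower had an unadjusted p under 0.05 against 1022 genes in all.

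**Figure D1:**
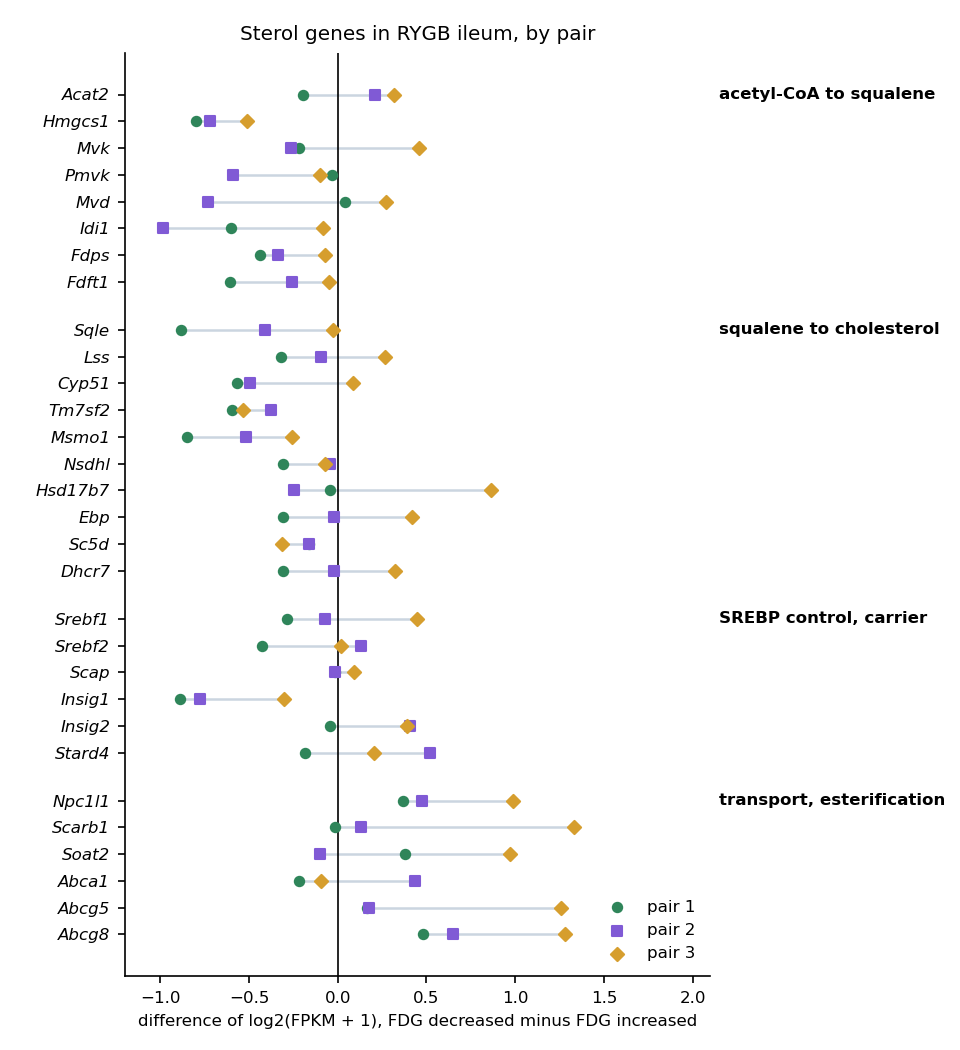
Difference in log2(FPKM + 1), FDG decreased minus FDG increased, for each of the 30 genes in each of the 3 replicate pairs of RYGB ileum. The points of 10 of the 18 enzymes and of Insig1 all lie left of 0, and those of Npc1l1, Abcg5 and Abcg8 all lie right of 0.

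Hmgcs1, the synthase that makes HMG-CoA early in the route, fell in FDG-decreased ileum when libraries were paired by number. Its levels were 58.6, 117 and 116 FPKM in FDG-decreased replicates 1, 2 and 3 and 103, 192 and 166 in FDG-increased replicates 1, 2 and 3. The groups overlapped, since FDG-increased replicate 1 lay below FDG-decreased replicates 2 and 3, but the FDG-decreased library was the lower in every pair. The log2 differences of the pairs were -0.80, -0.72 and -0.51, with a mean of -0.68. The standard error was 0.131 with the block (limma, Benjamini-Hochberg adjusted p = 0.038, 95% interval -0.97 to -0.39) and 0.431 without it (adjusted p = 1.00). This call did not survive several alternatives: the limma adjusted p with the block was 0.140 with no filter on low values, 0.053 with libraries shifted to the same median, 0.0655 with quantile normalization and 0.548 without pair 1.

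Further along the first stretch of the route, Idi1, Fdps, Fdft1 and Pmvk were also lower in every pair without passing the test. Idi1, the isomerase of the isoprene units, was at 20.2, 42.1 and 41.0 FPKM in FDG-decreased and 31.2, 84.3 and 43.4 in FDG-increased ileum, and its pairs differed by -0.60, -0.98 and -0.08. Pair 2 gave the widest gap and pair 3 almost none. Fdft1, the squalene synthase, was at 27.5, 36.5 and 33.6 FPKM against 42.3, 43.8 and 34.8, with a log2 difference of -0.30, and Fdps, the farnesyl diphosphate synthase, gave -0.28. The kinase Mvk (-0.01), the decarboxylase Mvd (-0.14) and the thiolase Acat2 (0.11) changed sign between pairs.

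Sqle, the squalene epoxidase that is a control point of the route, was the enzyme whose groups did not overlap. It was at 16.6, 25.0 and 26.9 FPKM in FDG-decreased ileum and 31.4, 33.6 and 27.5 in FDG-increased ileum, although FDG-decreased replicate 3 lay just under FDG-increased replicate 3. The log2 difference was -0.44 with a standard error of 0.172 with the block (limma adjusted p = 0.411). Across all genes tested, FDG-decreased libraries lay wholly below FDG-increased ones for 1.26% and wholly above for 1.95%. Insig1 was the only other member wholly below and Npc1l1 the only member wholly above.

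Among the later enzymes, Sqle, Msmo1, Tm7sf2, Nsdhl and Sc5d were lower in every pair. Msmo1, a methylsterol monooxygenase, was at 46.1, 93.3 and 72.7 FPKM in FDG-decreased and 83.8, 134 and 86.9 in FDG-increased ileum, lowest in FDG-decreased replicate 1 and highest in FDG-increased replicate 2. Its mean log2 difference was -0.54 (limma with the block, adjusted p = 0.160). Tm7sf2, a sterol reductase, was at 14.8, 12.2 and 7.60 FPKM against 22.9, 16.1 and 11.4, and its 3 pairs differed by similar amounts, -0.59, -0.37 and -0.53 (adjusted p = 0.188). Sc5d, a sterol desaturase, varied far more between pairs than within them, at 80.5, 179.7 and 53.8 FPKM and 90.2, 201 and 67.2, with a log2 difference of -0.21, and Nsdhl, a sterol dehydrogenase, gave -0.14. Cyp51, the lanosterol demethylase, was at 90.1, 132 and 93.4 FPKM against 134, 187 and 87.9, lower in pairs 1 and 2 and slightly higher in pair 3. The remaining later enzymes, the lanosterol synthase Lss, the isomerase Ebp and the reductases Hsd17b7 and Dhcr7, had mean log2 differences between -0.05 and 0.19 and were higher in pair 3.

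The enzymes were less uniform in pair 3. Of the 18, 17 were lower in pair 1, 17 in pair 2 and 10 in pair 3, with median log2 differences of -0.31, -0.30 and -0.04. The medians over all genes were -0.03, 0.02 and 0.08 in the same pairs. Libraries of pair 1 shared sequencing lane 7 and those of pair 2 lane 4, while pair 3 set lane 5 against lane 4. Pairs 1 and 2 are thus comparisons within a lane, and in pair 3 the lane and the group cannot be told apart. Both libraries of pair 3 also differed in markers. The 9 smooth muscle markers summed to 1684 and 2135 FPKM in FDG-decreased and FDG-increased replicate 3, against 885 to 1217 in the other RYGB libraries. The 8 T cell markers summed to 28.3 and 20.1 FPKM, against 117 to 202 there. The 14 absorptive enterocyte markers summed to 10219.6 and 5245 FPKM in the same 2 libraries, against 17876 to 29604 in the other RYGB libraries. The part of these markers in pair 3 was not tested. Summed over the 18 enzymes, FPKM came to 577, 861 and 701 in FDG-decreased and 813, 1147 and 754 in FDG-increased replicates 1, 2 and 3, lower in each pair but overlapping between the groups.

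**Figure D2:**
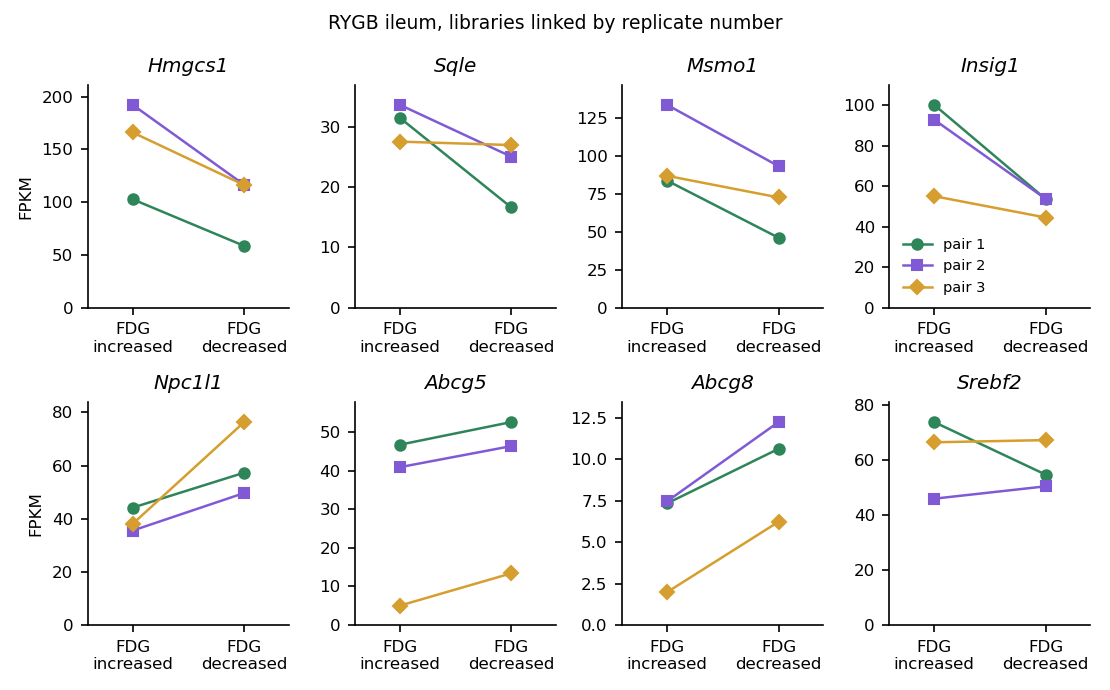
FPKM (vertical axis, from 0) of 8 genes in the 6 RYGB libraries, with lines joining libraries of the same replicate number. Hmgcs1, Sqle, Msmo1 and Insig1 slope down from FDG increased to FDG decreased in every pair, Npc1l1, Abcg5 and Abcg8 slope up, and Srebf2 slopes down in pair 1 and slightly up in pairs 2 and 3.

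Among the regulators, Insig1 was lower in every pair, like most enzymes, and the others were not. Insig1 anchors Scap when sterols are plentiful and is itself a target of SREBP. It was at 53.6, 53.7 and 44.5 FPKM in FDG-decreased and 100.1, 92.8 and 55.0 in FDG-increased ileum. The groups did not overlap, and the pairs differed by -0.89, -0.78 and -0.30. The mean log2 difference of -0.66 had a standard error of 0.150 with the block (limma adjusted p = 0.083, 95% interval -0.99 to -0.32). Srebf2 was at 54.6, 50.4 and 67.2 FPKM against 73.8, 45.9 and 66.4, Srebf1 at 11.4, 7.07 and 13.4 against 14.2, 7.47 and 9.58, and Scap at 16.2, 12.1 and 13.8 against 16.4, 12.3 and 12.9. All 3 overlapped between the groups, with mean log2 differences of -0.09, 0.03 and 0.02. The 95% interval for Scap with the block ran from -0.29 to 0.33. Insig2, an Insig not induced by SREBP, and Stard4, which moves cholesterol between membranes, had means of 0.25 and 0.18 and were higher in pairs 2 and 3 but not in pair 1.

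Of the transport genes, Npc1l1, Abcg5 and Abcg8 were higher in FDG-decreased ileum in every pair, the others had a higher mean only, and 0 of the 6 passed the test. Npc1l1, the uptake protein blocked by ezetimibe, was at 57.3, 49.7 and 76.4 FPKM in FDG-decreased and 44.2, 35.5 and 38.1 in FDG-increased ileum. Every FDG-decreased library lay above every FDG-increased library, with FDG-decreased replicate 3 the highest. Its mean log2 difference was 0.61, with a standard error of 0.154 with the block (limma adjusted p = 0.117). Abcg8 was at 10.6, 12.2 and 6.22 FPKM against 7.33, 7.45 and 1.98, with pair differences of 0.48, 0.65 and 1.28 and a mean of 0.80 (adjusted p = 0.084). Its partner Abcg5, read from the other strand of the same promoter stretch, was at 52.7, 46.4 and 13.4 FPKM against 46.8, 41.0 and 5.03, with pair differences of 0.17, 0.18 and 1.26 (adjusted p = 0.469). Replicate 3 of both groups was low for both exporters, and pair 3 gave the widest gap for both.

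Scarb1, the high-density lipoprotein receptor, was at 6.74, 7.12 and 13.1 FPKM against 6.84, 6.43 and 4.61, so that its mean difference of 0.48 came almost wholly from pair 3. Soat2, which esterifies cholesterol, was at 49.8, 32.7 and 27.2 FPKM against 38.1, 35.1 and 13.4, and Abca1 at 7.02, 10.6 and 3.65 against 8.33, 7.60 and 3.96, with log2 differences of 0.42 and 0.04. Both overlapped between the groups and changed sign between pairs.

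Which of these passed the blocked test depended on the pairs used. Without pair 2, limma with the block called 6 of the 30 members: Hmgcs1, Msmo1 and Insig1 lower and Npc1l1, Abcg8 and Soat2 higher. In that fit 415 of all 10624 genes tested were called. Without pair 3 it called 5 members, Hmgcs1, Idi1, Sqle, Msmo1 and Insig1, all lower, and 346 of 10804 genes. Without pair 1 it called 0 members and 35 of 10707 genes. The fits on 2 pairs have few residual degrees of freedom and borrow their spread from all genes.

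Many markers of enterocytes and of the upper intestine were also higher in FDG-decreased ileum, while most ileum markers were lower. Of all genes tested, 17.2% were higher and 12.7% lower in FDG-decreased ileum in every pair. Of 14 absorptive enterocyte markers, 11 were higher in every pair, with a median log2 difference of 0.60 over the 14. The summed FPKM of these markers ranged from 10219.6 to 29604 in FDG-decreased and from 5245 to 19778 in FDG-increased libraries. Alpi, the brush-border alkaline phosphatase, and Apob, the chylomicron protein, rose in the blocked fit (limma adjusted p = 0.047 and 0.045). Of 8 upper-intestine markers, 4 were higher in every pair, Gip and Lct were called with the block, and Gata4 was at 6.16, 1.01 and 26.4 FPKM against 0, 0.0410 and 0.590. Summed FPKM of the upper-intestine markers, of which Fabp1 is also in the enterocyte list, ranged from 3529 to 7842 and from 1378 to 5321. Of 9 ileum markers tested, 6 had a lower mean in FDG-decreased ileum (median log2 difference -0.30), 4 were lower and 1 higher in every pair, and the one higher, the intrinsic factor receptor Cubn, was called with the block (limma adjusted p = 0.00555). Fabp6 was at 15506, 17759 and 5399 FPKM against 18537, 22498 and 7218, and the bile acid receptor Nr1h4 differed by -0.59 (limma with the block, adjusted p = 0.092). In whole tissue, fewer cells of a type and less RNA per cell cannot be told apart. Relative to the mean of the enterocyte markers on the log2 scale, the 18 enzymes differed (FDG decreased minus FDG increased) by -1.08, -0.68 and -0.78 in pairs 1, 2 and 3, and the 6 transport genes differed by -0.49, -0.05 and 0.12. The part of these markers in the sterol gene differences was not tested.

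Sterol genes outside the 30 gave a mixed picture. Of 29 further genes tested, 15 were higher and 14 lower in FDG-decreased ileum, with a median of 0.04, and 0 were called by limma with or without the block, where 2 higher and 2 lower had an unadjusted p under 0.05. Gramd1c, of a family that moves cholesterol from the plasma membrane, was higher in every pair, by 0.99 on average (limma with the block, adjusted p = 0.097). Of 13 fatty acid synthesis genes, the classic targets of SREBP-1c, 0 were called with the block. In every pair 3 of the 13 were lower and 3 higher, against 12.7% and 17.2% of all genes tested. Fasn and Scd differed by -0.09 and 0.06.

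The second comparison asked how the same genes differ between FDG-increased RYGB ileum and sham ileum. Limma called 0 of the 30 members and 0.037% of all 10801 genes, and 1 member and 847 genes had an unadjusted p under 0.05. Without the library labelled sham replicate 1 it called 0 members and 0.00925% of 10812 genes, and 3 members and 1042 genes had an unadjusted p under 0.05. Of the 18 enzymes 16 had a higher mean after RYGB, with a median log2 difference of 0.31 with and without that library, where the median over all genes was 0.13 with it and 0.15 without. Of the 6 transport genes 2 were higher, with a median of -0.44, and leaving that library out gave 4 higher and a median of 0.14. Over all 30 members the median was 0.24 with 20 of them higher, or 0.25 with 23 higher without it. Most genes tested were also higher, 6987 of 10801, or 6882 of 10812 without that library. With libraries shifted to the same median, which takes the median of all genes to 0.00, the member median was 0.11, and with quantile normalization it was 0.04.

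The FDG-increased libraries disagreed among themselves about the enzymes. The 18 enzymes summed to 438, 832 and 1171 FPKM in the FDG-increased columns 1, 2 and 3, and to 535, 537 and 554 in the 3 sham libraries. Column 1 lay below every sham library for 11 of the 18 enzymes, and columns 2 and 3 both lay above every sham library for 11 of 18. Across all genes those shares were 27.4% and 20.7%. Columns 2 and 3 are the libraries that also stand in the RYGB table as FDG-increased replicates 1 and 2, and column 1 does not occur there. Without column 1 the median over the members was 0.37, and without column 3 it was 0.03. Ileum markers were higher than in sham for 8 of 9 genes (median 1.39), macrophage and dendritic markers for 6 of 8 (1.08), T cell markers for 7 of 8 (0.91) and absorptive enterocyte markers for 12 of 14 (0.42), and adipocyte markers were lower for 8 of 8 (-0.98). Without the library labelled sham replicate 1 these were 7 of 9 (0.98), 6 of 8 (1.19), 7 of 8 (0.98), 13 of 14 (0.94) and 8 of 8 (-1.32). Relative to the mean of the enterocyte markers on the log2 scale, the 18 enzymes lay at -4.47, -4.20 and -3.95 in FDG-increased columns 1, 2 and 3. In sham replicates 1, 2 and 3 they lay at -5.53, -3.61 and -3.76. The 6 transport genes lay wholly below sham on that scale, at -4.60, -4.99 and -5.05 against -4.21, -4.03 and -4.19. The part of all these markers in the sterol gene values was not tested.

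Hmgcs1 shows the pattern, at 51.3, 105 and 196 FPKM in FDG-increased columns 1, 2 and 3 and 74.0, 73.8 and 72.3 in sham replicates 1, 2 and 3. The sham libraries lay within a few FPKM of each other and inside the range of the FDG-increased ones. Its log2 difference was 0.47 with a standard error of 0.463 (limma adjusted p = 0.839), or 0.48 without sham replicate 1. Idi1 was at 13.4, 32.0 and 86.0 FPKM against 16.1, 27.2 and 21.9, Msmo1 at 30.1, 85.7 and 136 against 39.7, 61.5 and 57.4, and Sqle at 11.3, 32.2 and 34.3 against 16.8, 18.1 and 21.9. In all 3 genes column 1 was the lowest of the 6 libraries and column 3 the highest. Sc5d and Cyp51 had the widest mean differences among the enzymes, 0.77 and 0.72 (0.75 and 0.61 without that sham library, where Tm7sf2 gave 0.83), and Insig1 was at 36.3, 102 and 94.7 FPKM against 55.6, 40.2 and 65.2.

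Pmvk, the kinase after Mvk, was the only member whose FDG-increased libraries all lay above all 3 sham libraries. It was at 22.8, 26.1 and 29.1 FPKM against 19.2, 13.4 and 19.3, with a log2 difference of 0.58 (limma adjusted p = 0.656), or 0.66 without the library labelled sham replicate 1. Across all genes FDG-increased libraries lay wholly above sham for 10.7% and wholly below for 4.44%. Without that library 5 members lay wholly above sham, Mvk, Pmvk, Tm7sf2, Soat2 and Abcg5, and 2 wholly below, Scarb1 and Abca1, against 22.5% and 8.31% of all genes over the same 5 libraries. With all 3 sham libraries Scarb1 was the only member wholly below, at 6.65, 6.99 and 6.56 FPKM against 163, 9.31 and 10.5. Its log2 difference of -1.80 moved to -0.50 without sham replicate 1. Srebf1 was at 10.7, 14.5 and 7.62 FPKM against 34.7, 14.5 and 16.2 and was the member with an unadjusted p under 0.05, with a log2 difference of -0.87 (limma adjusted p = 0.630) or -0.49 without that library. Srebf2 and Scap overlapped, with differences of -0.09 and -0.02, or -0.12 and 0.05 without it.

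**Figure D3:**
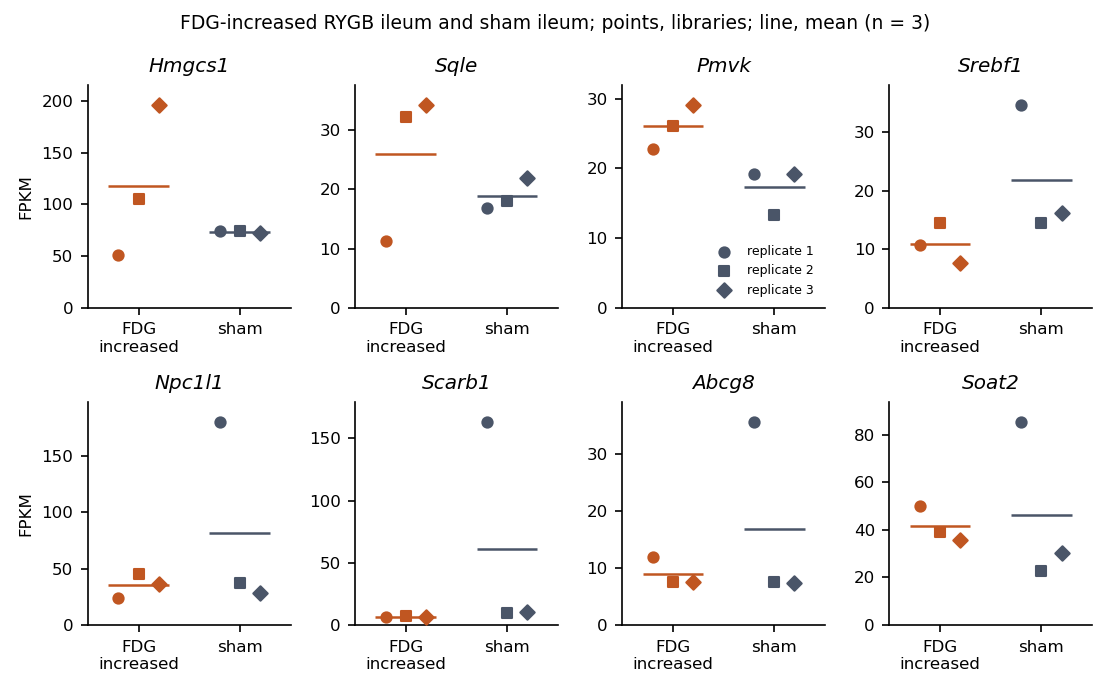
FPKM (vertical axis, from 0) of 8 genes in the FDG-increased and sham libraries of the sham table, with points for libraries and a line for the group mean. Sham replicate 1 stands far above the other libraries for Npc1l1, Scarb1, Abcg8 and Soat2, and FDG-increased column 1 is the lowest library for Hmgcs1 and Sqle.

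The library labelled sham replicate 1 had the highest transport gene levels of the sham group, Abca1 excepted. It was more than 2 times both other sham libraries for 5 of the 6 transport genes and for 7 of the 30 members, against 4.34% of all genes. Npc1l1 was at 179.7, 37.0 and 28.1 FPKM in the sham libraries and 24.1, 45.2 and 36.3 in the FDG-increased ones, Abcg8 at 35.7, 7.54 and 7.42 against 12.0, 7.49 and 7.60, and Soat2 at 85.4, 22.7 and 30.1 against 49.9, 39.0 and 35.8. The ratio of that library to the mean of the other sham libraries was 16.4 for Scarb1, 5.52 for Npc1l1, 4.77 for Abcg8 and 2.6 for Abcg5. Abca1 was lowest in that library, at 7.72, 12.5 and 12.6 FPKM in sham. The mean log2(FPKM + 1) of the upper-intestine markers was 6.02 in that library and 4.21 and 3.43 in the other sham libraries, and its part in these levels was not tested. Without that library the log2 difference of Npc1l1 went from -0.74 to 0.08, that of Abcg8 from -0.49 to 0.21, and that of Abcg5 from 0.30 to 0.75, with limma adjusted p-values of 0.962, 0.845 and 0.513.

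**Figure D4:**
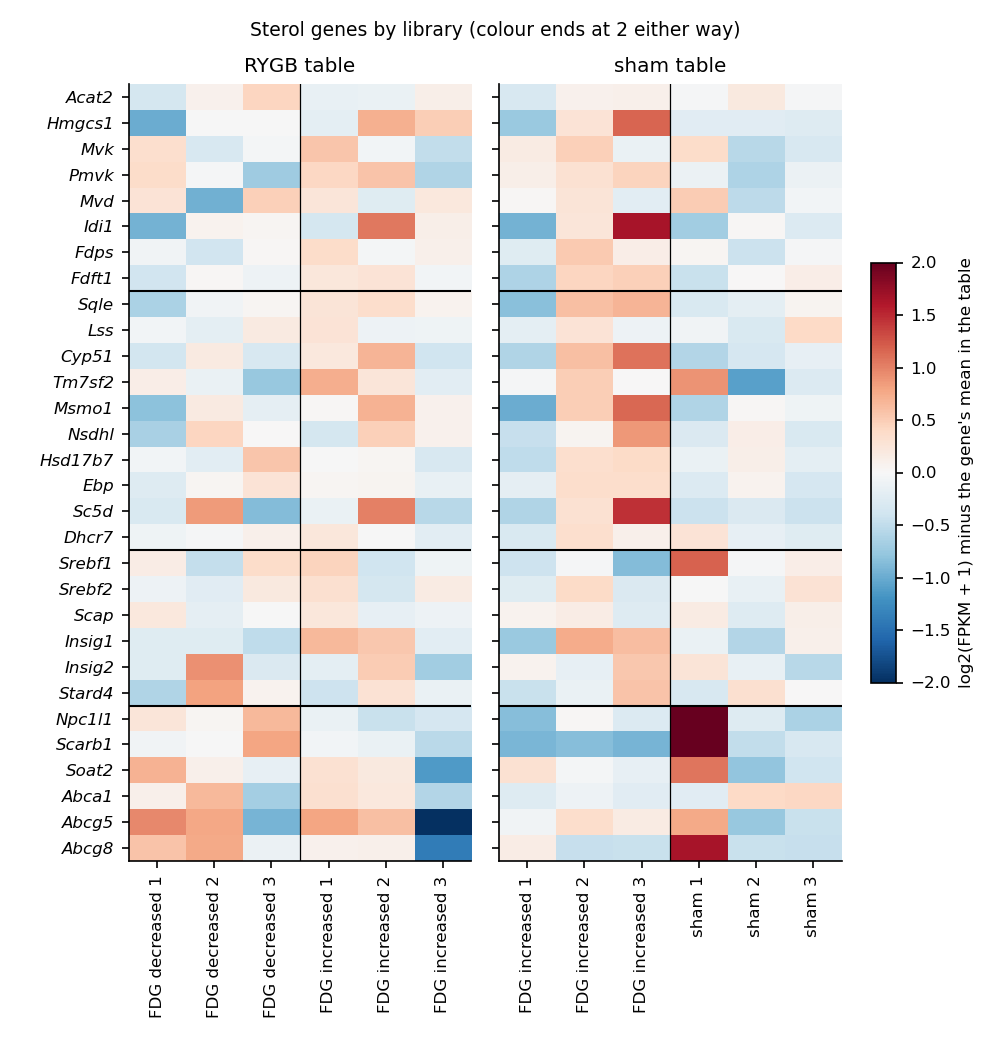
Log2(FPKM + 1) of the 30 genes (rows, grouped by role) in the 6 libraries of each table (columns), minus the gene's mean in that table, with red above and blue below the mean and colours ending at 2 either way. FDG-increased columns 2 and 3 of the sham table are red for most enzymes and column 1 is blue, and sham replicate 1 is red for 5 of the 6 transport genes.

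The wider sterol list and the fatty acid genes also gave 0 calls against sham. Of 29 further sterol genes 24 lay higher in FDG-increased than in sham ileum (median 0.18), as did 6987 of all 10801 genes. Of the 29, 0 higher and 1 lower had an unadjusted limma p under 0.05. Without the library labelled sham replicate 1, 23 lay higher (median 0.32), with the same counts of unadjusted p. Of 14 fatty acid synthesis genes 8 were lower (median -0.13), with 4 of them at an unadjusted p under 0.05, and without that library 8 were lower (median -0.31), with 3. Scd, the stearoyl-CoA desaturase, lay wholly below sham at 15.4, 24.3 and 27.1 FPKM against 30.6, 46.4 and 59.6 (log2 difference -0.99, limma adjusted p = 0.562), and Fasn, the fatty acid synthase, differed by -0.66 (adjusted p = 0.630). Without that library the log2 differences were -1.24 for Scd and -0.75 for Fasn, with limma adjusted p-values of 0.469 and 0.520.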

How the data were processed

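Total RNA was sequenced in 9 labelled samples, and 2 tables of FPKM per gene and library were deposited by the authors, each with its own scaling. Reads were handled with bcl2fastq 1.8.4, STAR 2.6.0a, Cufflinks 2.2.1, Cuffdiff and DESeq2 1.24.0, per the submitters' processing notes, which give no roles or settings here and list the human build hg19 although the symbols are those of rat. Libraries were stranded and depleted of ribosomal RNA, per the labels' protocols. Columns were matched to samples by name, and 0 columns of samples were left unused. FPKM carries no counts, and low values gave no step that whole reads could be recovered from. The depth is therefore unknown, and intervals for counting error are not given.

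The 25 symbols turned into dates by a spreadsheet were left out. Genes averaging 1 FPKM or more in the 6 libraries of a table were compared as log2(FPKM + 1), a scale that understates changes of low genes, with limma 3.58.1 in R 4.3.3 (intensity trend, robust variances, Benjamini-Hochberg over all genes tested, threshold 0.05). The fitting code was tested on simulated data with a residual spread that was set rather than estimated. For the RYGB comparison it was tested only with the replicate block. That test gives no measure of power or error rates in these libraries. FDG-decreased and sham ileum were not compared, since they stand in tables of different scale. In the RYGB table deviations from group means correlated across genes at 0.85, 0.76 and 0.77 for libraries of the same number. Other combinations gave -0.13 to -0.59, but deviations within a group cancel for each gene, so these values are not separate evidence. From these same data the replicate numbers were taken to pair the libraries, although no label says what a number shares. Pairs 1 and 2 also share a lane. Alternatives were another pseudocount (0.1), no level filter, libraries shifted to the same median, quantile normalization, the replicate block, the lane, and each replicate left out; combinations of the block with a further choice were added after seeing the data. Promoter windows came from RefSeq (GRCr8). All 30 members are named; other genes were named for the largest differences in their lists, a call, or as best-known genes of their pathway, and marker genes only where a result turns on them; some genes of these lists are not reported here. Members and lists were chosen with earlier results of these data known.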

Additional observations from a re-analysis of the deposited data

How the results depend on the processing

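Limits: read depth is unknown, each group has 3 libraries, pairs 1 and 2 share a lane, and a pair of libraries is common to both comparisons. Between FDG-decreased and FDG-increased ileum, the count of genes called was 0 without and 122 with the replicate block, and that of members 0 and 1 (Hmgcs1); the paired fit changed no other member's call. The added fits that joined the replicate block with a further choice called 123 genes (pseudocount 0.1, with 1 member), 32 (no level filter), 101 (libraries shifted to the same median) and 90 (quantile normalization), the last 3 with 0 members. Leaving out libraries or pairs in turn gave 0 to 1 gene called without the block. With the block it gave 35 of 10707 genes (without pair 1), 415 of 10624 (without pair 2) and 346 of 10804 (without pair 3). Of the 30 members 0, 6 and 5 were called in these fits. The member median of -0.03 was -0.12 to 0.052 without a library, 0.079 without pair 1 and -0.17 without pair 3. Enzymes lower in every pair left numbered 10, 10 and 16 of 18 without pairs 1, 2 and 3. The shares of all genes were 19.0%, 25.9% and 27.4%. With all pairs and quantile normalization 9 enzymes were lower in every pair, against 13.8% of all genes. Against sham, genes called were 4, or 1 (pseudocount 0.1), 0 (no level filter), 1 (same median), 0 (quantile normalization) and 39 with the replicate block, for which the numbers did not pair the libraries (same-number correlations of 0.35, -0.50 and -0.25); leaving out a library gave 0 to 13. The member median of 0.24 became 0.11 (same median), 0.040 (quantile normalization) and 0.39 (lane 7 libraries alone), and 0.030 to 0.37 with a library left out. The lane 7 libraries are FDG-increased column 2 and the 3 sham libraries, so that fit rests on 1 FDG-increased library. Column 3 was from lane 4 and the lane of column 1 is unknown, so lane and group largely go together against sham. Causes were not tested.

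Members whose difference changed sign were uncalled in every such fit. Between FDG-decreased and FDG-increased ileum, the log2 difference of Dhcr7 was 0.023 with quantile normalization, and with lane as a term those of Acat2 (-0.032), Ebp (-0.086), Hsd17b7 (-0.058), Sc5d (0.29), Scap (-0.035) and Srebf1 (-0.25) turned. Leaving out a library gave ranges for Abca1 of -0.27 to 0.39, Abcg5 -0.43 to 1.14, Acat2 -0.077 to 0.31, Dhcr7 -0.11 to 0.11, Ebp -0.099 to 0.17, Hsd17b7 -0.034 to 0.34, Insig2 -0.14 to 0.57, Lss -0.15 to 0.071, Mvd -0.42 to 0.31, Mvk -0.26 to 0.27, Nsdhl -0.39 to 0.15, Pmvk -0.61 to 0.052, Sc5d -0.69 to 0.24, Scap -0.084 to 0.14, Soat2 -0.044 to 0.68, Srebf1 -0.16 to 0.27, Srebf2 -0.29 to 0.045 and Stard4 -0.18 to 0.53. Against sham, the turned values were those of Dhcr7 (-0.045), Mvd (-0.081) and Soat2 (-0.051) with libraries shifted to the same median, of Dhcr7 (-0.13), Fdft1 (-0.053), Fdps (-0.055) and Soat2 (-0.13) with quantile normalization, and of Acat2 (0.038), Insig2 (-0.0064), Lss (0.26), Scap (0.13) and Srebf2 (0.34) with the lane 7 libraries alone. Leaving out a library gave ranges for Abcg5 of -0.0098 to 0.75, Abcg8 -0.85 to 0.21, Acat2 -0.17 to 0.049, Dhcr7 -0.061 to 0.26, Hsd17b7 -0.012 to 0.44, Idi1 -0.031 to 1.27, Lss -0.17 to 0.17, Msmo1 -0.028 to 1.04, Mvd -0.21 to 0.31, Npc1l1 -1.24 to 0.077, Nsdhl -0.053 to 0.61, Scap -0.16 to 0.096, Soat2 -0.30 to 0.63, Srebf2 -0.31 to 0.032, Stard4 -0.29 to 0.21 and Tm7sf2 -0.16 to 0.83.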
